A study of Mus musculus with 2 samples.

Results

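The Schlafen genes are a family of growth-regulating and interferon-inducible genes of immune cells. They were followed here in activated CD4 T cells, on 1 array of a library labelled wild type and 1 of a library labelled Gfi1 knockout. The members are the 7 genes Slfn1, Slfn2, Slfn3, Slfn4, Slfn5, Slfn8 and Slfn9, taken as every probe whose gene symbol in the platform annotation is one of these names. They account for 9 of 59305 spots on each array and for 7 of 20737 named genes. The rule names genes and sets no limit on a measured value, but the family was chosen with earlier results of these data known. Each member probe was printed on 1 spot, Slfn8 and Slfn9 had 2 probes and each other member had 1.

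Both libraries came from C57BL/6 mice. The cells were splenic naive CD4 T cells isolated with a bead kit and then activated in culture for 2 days with immobilised antibody to the T cell receptor beta chain at 3 µg/ml and antibody to CD28, a costimulatory receptor, at 1 µg/ml. Both cultures also received IL-2, a T cell growth factor, at 10 ng/ml and neutralising antibodies to IL-4 and to IFN-γ at 5 µg/ml each. The genotype was the only labelled difference, Gfi1 wild type against Gfi1 knock out. Gfi1 encodes a zinc-finger repressor of transcription, and the title of the series asks how it bears on the T helper 1 programme. The labels give neither the design of the knockout allele nor the age, sex or number of the animals.

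Schlafen proteins share an amino-terminal core domain, and in mice they fall into short members (Slfn1 and Slfn2), intermediate members (Slfn3 and Slfn4) and long members with an added helicase-like part (Slfn5, Slfn8, Slfn9 and the relatives Slfn10 and Slfn14). The family was first described in thymocytes and T cells. Slfn1 slows the growth of T cells when forced on, and loss of Slfn2 function breaks the quiescence of resting T cells. Type I interferons induce several members in many cell types through promoter elements bound by the factor ISGF3 and by interferon regulatory factors.

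The promoters of the members differed in whether they held such an element, and those of Slfn8 and Slfn9 both carried it. All 7 members were matched by symbol in the RefSeq promoter table of build GRCm38.p6, in 8 windows that run from 250 bases before to 50 after a transcription start (Slfn8 has 2). The search was for GAAANNGAA, the core of the interferon-stimulated response element, where N is any base; on the other strand it reads TTCNNTTTC. It was found for 3 of the 7 members, Slfn5, Slfn8 and Slfn9, against 9.76% of 27025 genes with windows of the same length. The stretches below are shown because they carry these matches, which are in capitals. Slfn1 is shown because it had no match and the highest difference among the members detected on both arrays. All stretches lie upstream of the start and are read 5′ to 3′ on the gene's strand.
Slfn8 (chr11:83020819-83020887, minus strand): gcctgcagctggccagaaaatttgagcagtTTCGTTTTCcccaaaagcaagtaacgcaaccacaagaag
Slfn9 (chr11:82991836-82991904, minus strand): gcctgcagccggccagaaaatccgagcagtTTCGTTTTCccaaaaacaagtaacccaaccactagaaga
Slfn5 (chr11:82951917-82952008, plus strand): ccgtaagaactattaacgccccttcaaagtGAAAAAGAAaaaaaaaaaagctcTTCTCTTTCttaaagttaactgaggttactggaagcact
Slfn1 (chr11:83116740-83116819, plus strand): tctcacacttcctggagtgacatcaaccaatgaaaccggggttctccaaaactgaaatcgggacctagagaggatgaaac

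In the Slfn9 window the match ended 36 bases before the start, and in the Slfn8 window of the farther upstream start it ended 39 bases before it, which is 127 bases before the other Slfn8 start. The Slfn9 window and that of the upstream Slfn8 start, aligned end to end, were identical at 80.8% of alignment columns, whereas the other 20 pairs of members lay between 46.5% and 53.0%. Slfn5 held 2 matches, 1 on each strand. AAATCAC, a core of the sequence that GFI1 binds, was found in 1 member, Slfn4, against 3.64% of all genes. Both strands were searched, and no match overlapped one of another motif. A match describes letters in a window and is neither a bound site nor a cause, and a window without one says nothing about the factor elsewhere.

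Slfn1 and Slfn8 were more than 2-fold brighter on the array labelled knockout, Slfn2 and Slfn9 were slightly brighter there, and Slfn3 was slightly dimmer. Slfn5 was read above the floor on the array labelled knockout alone, and Slfn4 on neither. Differences are log2 values, knockout label minus wild-type label, after each array was scaled to the 75th percentile of its probes. A probe counted as detected where its signal exceeded the array's median over probes, 14.2 units under the wild-type label and 14.6 under the knockout label, and an undetected side was set to that floor. Of the 7 members 6 passed this filter, of which 2 were higher by 2-fold or more and 0 were lower by that much; among all 13410 detected genes the shares were 3.62% and 1.52%. Among the genes whose brighter signal was 100 to 1000 units, where Slfn1, Slfn3, Slfn8 and Slfn9 lie, 4.54% were higher by 2-fold or more. Of the 6 detected members 5 had a difference above 0, against 41.6% of all detected genes. The median over the 6 was 0.29, with an SD between members of 0.65 and a range of -0.16 to 1.502, beside a median of -0.05 over all detected genes. One member of the 6, Slfn5, passed only through the array labelled knockout, so its sign above 0 followed from the filter and the floor. Over the 5 members with probes detected on both arrays the median was 0.37. These counts and medians describe the detected members and not the whole family.

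With 1 array per genotype there is no spread between animals or cultures, so no test could be made and no p-value is given. The errors beside single probes are the median SD of the difference over the spots of probes printed 10 times. This SD was 0.35 at 15 to 50 units, 0.11 at 50 to 500 units and 0.05 at 500 to 5000 units. The replicated probes were classed by their mean log2 signal over the 2 arrays, and a Schlafen probe by the dimmer of its 2 readings. Single probes can vary more than the median: at 50 to 500 units the 90th percentile of the SD was 0.21. The SD covers variation within the arrays only.

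**Figure D1:**
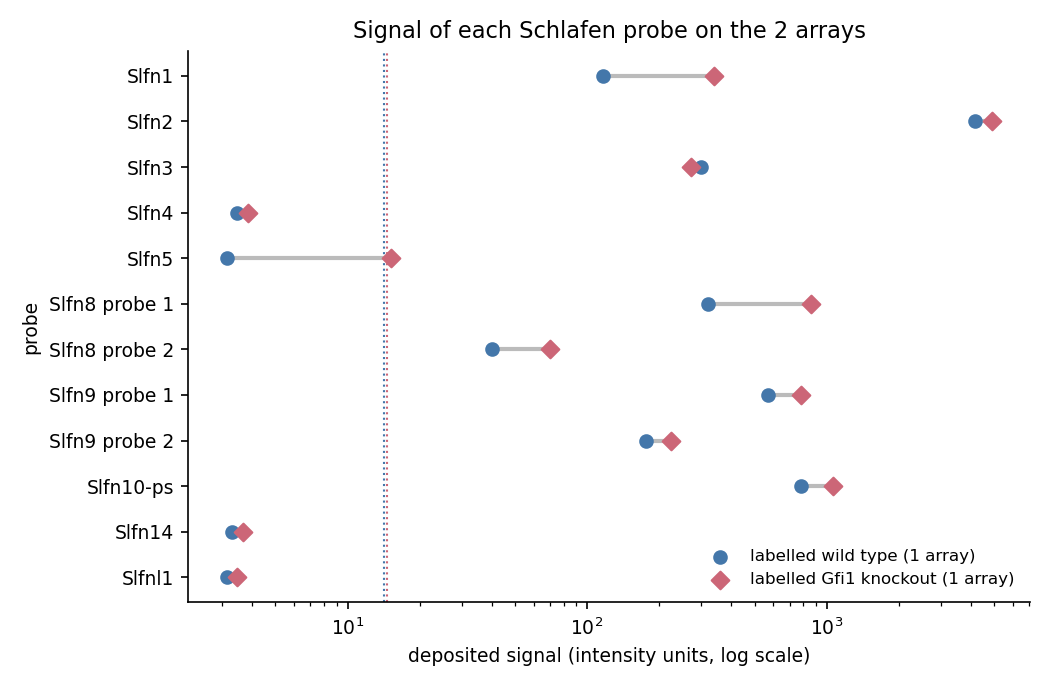
Deposited signal (intensity units, log scale) of each probe of the 7 members and 3 relatives on the array labelled wild type (circles) and the array labelled Gfi1 knockout (diamonds); dotted lines are the floors of 14.2 and 14.6 units. The widest gaps above the floor are those of Slfn1 and the first Slfn8 probe, and the Slfn4, Slfn14 and Slfnl1 readings all lie near 3 to 4 units.

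Among the short members, Slfn1 and Slfn2 differed in size. Slfn1, whose product restrains T cell growth when overexpressed, read 117 units under the wild-type label and 339 units under the knockout label. This is a 2.83-fold difference (log2 1.502, within-array SD 0.11, 1 probe). Only 235 of the 13410 detected genes, 1.75%, had a larger positive difference. When the floor was raised to the 75th percentile, which lies above its wild-type reading, the Slfn1 value became a bound of at least 0.33. That bound was not past 2-fold. Leaving out spots numbered above 50000 removes its only spot. Slfn2, which keeps resting T cells quiescent and has been reported to protect transfer RNAs from cleavage, read 4150 and 4880 units. Its difference of 0.20 (1.15-fold, within-array SD 0.05, 1 probe) was exceeded by 20.4% of detected genes. Both short members were on the higher side under the knockout label, and Slfn1 was past 2-fold while Slfn2 was not.

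The intermediate members gave no difference of 2-fold. Slfn3, described in T cells and in gut epithelium, read 298 units under the wild-type label and 272 under the knockout label. At -0.16 (1.12-fold lower, within-array SD 0.11, 1 probe) it was the single detected member on the lower side, by little more than the within-array SD. Slfn4, best known from monocytes, macrophages and myeloid cells of the stomach, read 3.44 and 3.84 units. These readings sit at the 25th percentile of each array, 3.43 and 3.77 units, so Slfn4 has no level above the floor in either library and no fold is given.

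The long members were uneven. Slfn8, studied in T cell development and activation, was read by probes assigned to different RefSeq transcripts of the gene. The first probe read 319 and 863 units, a 2.64-fold difference (log2 1.40, within-array SD 0.11). The second read 40 and 70 units, a 1.71-fold difference (log2 0.77, within-array SD 0.35). Both probes lay on the same side, and 1 of the 2 passed 2-fold. The gene's mean was 1.09 ± 0.44 (SD over 2 probes), 2.13-fold, close to the 2-fold mark and exceeded by 3.10% of detected genes. With 16 units added to every signal before the logarithm, the mean was 0.97 and Slfn8 was no longer past 2-fold.

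Slfn9, whose promoter window is the one most like that of Slfn8, gave a smaller difference on both of its probes. The first read 568 and 781 units (log2 0.43, within-array SD 0.05) and the second 176 and 225 units (log2 0.32, within-array SD 0.11). Its mean was 0.37 ± 0.07 (SD over 2 probes), 1.30-fold, and 12.3% of detected genes had a larger difference. The lower of the Slfn8 probes, at 0.77, stood above the higher of the Slfn9 probes, at 0.43, by about the within-array SD of the dim Slfn8 probe. Slfn8, Slfn9 and Slfn10-ps are close paralogs. The sequences of the array probes were not used here, so how far a probe also binds the transcript of a paralog was not tested, and a difference assigned to one of the 3 may be shared.

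Slfn5, a nuclear long member that interferon induces in many cell types, read 3.14 units under the wild-type label and 15.2 units under the knockout label. The second reading is barely above the floor of 14.6 units, so the fold is a bound of at least 1.05 (log2 0.07). The size of this difference turns on where the floor is put. When the floor was lowered to the 25th percentile, the bound was at least 4.33-fold and Slfn5 became the third member past 2-fold. Its spot also lies in a stretch of the arrays where dim spots disagree between the 2 arrays more often, as given below.

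**Figure D2:**
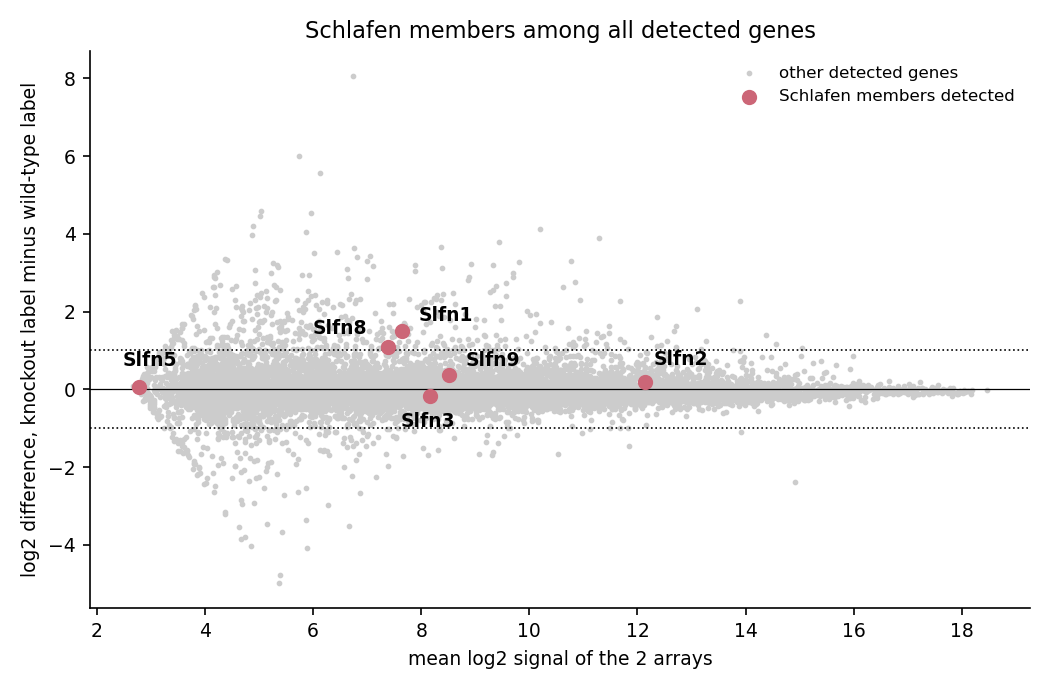
Log2 difference (knockout label minus wild-type label) against the mean log2 signal of the 2 arrays for all 13410 detected genes (grey) and the 6 detected members (red); dotted lines mark 2-fold. Slfn1 at 1.502 and Slfn8 at 1.09 lie above the upper line, and the other 4 lie between -0.16 and 0.37.

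The share of spots past 2-fold varied along the arrays. Feature numbers order the spots in the files, and the spots of Slfn1 and Slfn5 carry numbers 50699 and 62845, while the 7 other member spots lie between 9298 and 48370. Among spots whose brighter signal was 100 to 500 units, the range in which Slfn1 falls, the share past 2-fold in either direction was 3.28% to 7.46% in the 20 bins of 2500 numbers up to 50000. In the bin from 50001 to 52500, which holds Slfn1, it was 4.96%. It then climbed to 26.4% between 60001 and 62500 and to 52.1% above that. For dimmer spots, from the floor to 100 units, the share in the last bin, which holds Slfn5, was 56.8%, against 8.60% to 15.98% in the 20 bins up to 50000. The part of spot position in the Slfn5 and Slfn1 readings was not tested. In the bin of the dimmer spots from 50001 to 52500 the share was 21.0%, also above that range.

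**Figure D3:**
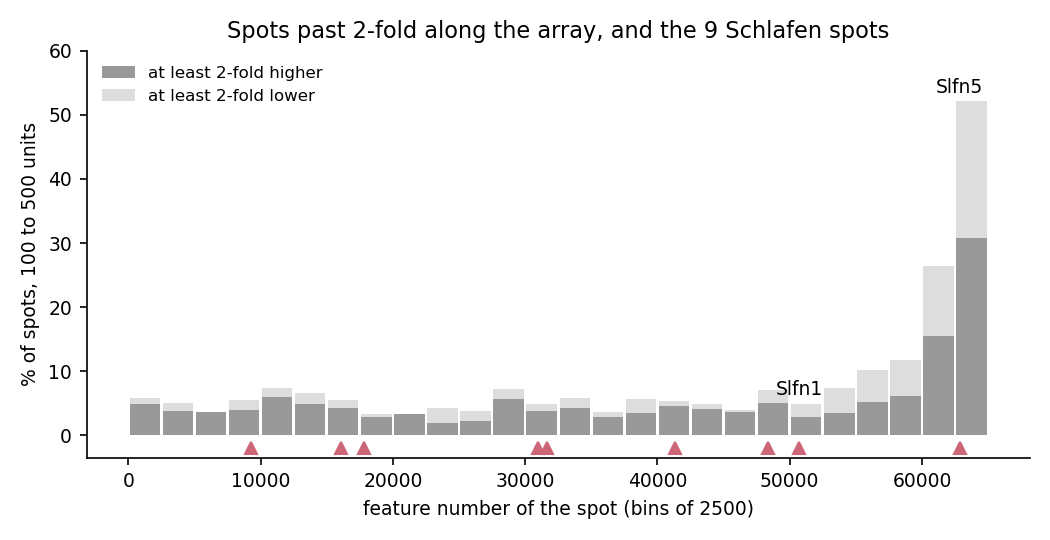
Share (%) of spots with a brighter signal of 100 to 500 units that were at least 2-fold higher (dark) or lower (light) under the knockout label, in bins of 2500 feature numbers; triangles mark the 9 Schlafen spots. The bin of Slfn1 stands at 4.96% and the last bin at 52.1%. Slfn5 has a feature number in the last bin but, at 15.2 units, is dimmer than the spots plotted. The triangles mark position only, since other Schlafen spots also lie outside the plotted signal class.

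The 3 relatives outside the member list added 1 detected gene. Slfn10-ps, a gene named as a pseudogene of the long type, read 782 and 1060 units, a difference of 0.41 (1.33-fold, within-array SD 0.05, 1 probe). This is near the value of Slfn9 and below 2-fold. Slfn14, which encodes a ribonuclease acting on ribosomes and is known from platelets and red cell precursors, read 3.29 and 3.66 units. Slfnl1, a distant relative on another chromosome, read 3.13 and 3.46 units. Both were below the floor in both libraries. The Slfn14 promoter window also held the response element core, so the 3 members and Slfn14 with that core range from undetected to past 2-fold.

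Along the chromosome, the members past 2-fold, Slfn8 and Slfn1, were not next to each other. On chromosome 11 the members and the relative Slfn10-ps lie in the RefSeq order Slfn5, Slfn9, Slfn8, Slfn10-ps, Slfn2, Slfn1, Slfn4 and Slfn3. Their differences in that order were 0.07 (a bound), 0.37, 1.09, 0.41, 0.20, 1.502, undetected and -0.16. Of the 5 nearest genes on each side, 10 in all, 5 had a probe and 3 were detected. Nle1, which acts in ribosome assembly and Notch signalling, stood at -0.18 (1920 and 1730 units) and the long non-coding RNA AI662270 at -0.24 (1220 and 1060 units). Fndc8 was at least 10.1-fold higher under the knockout label, from 3.07 to 147 units, on a spot with feature number 62362, in the bin next to that of Slfn5.

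**Figure D4:**
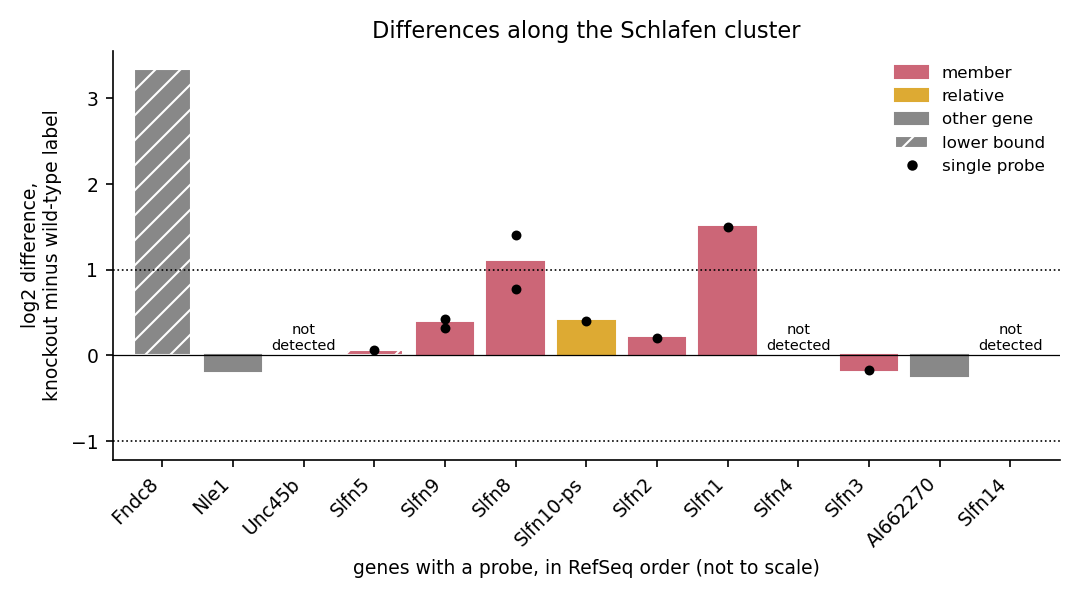
Log2 difference (knockout label minus wild-type label) of the genes with a probe in and beside the Schlafen cluster, in RefSeq order and not to scale; black points are single probes of the Schlafen genes, hatched bars are lower bounds and dotted lines mark 2-fold. Slfn8 and Slfn1 pass the upper line, with Slfn10-ps at 0.41 and Slfn2 at 0.20 between them.

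The Schlafen differences were set beside those of genes that interferons induce. Of 39 detected genes on the interferon-induced list, which holds no Schlafen gene, 27 were higher by 2-fold or more and 0 were lower by 2-fold; their median was 1.84, with a range of -0.15 to 3.79. Usp18, which removes ISG15 from proteins, stood at 3.79, Isg15 at 3.30 ± 0.09 (SD over 2 probes), Oas1a at 3.20 ± 0.27 (2 probes) and Oasl2 at 3.17. Slfn1 at 1.502 lay below 21 of these 39 genes and Slfn8 at 1.09 below 25. Slfn9 and Slfn2 each lay below 37 of the 39, and Slfn3 below all 39. Slfn5 has no place in this order, since its value is a bound. Of the 39 list genes, 3 passed the filter only through the array labelled knockout, so their values are lower bounds too. The means of Ddx58 and Xaf1, each over 2 probes, also include a probe set to the floor under the wild-type label, so they are lower bounds as well. The numbers of list genes above a member are therefore minimum counts. In their promoter windows, 16 of the 29 list genes with a window held the response element core, 55.2%, beside 3 of 7 Schlafen members.

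Of the interferon genes, 7 of 9 with a probe were detected. Ifng stood at 4.11 (279 and 4944 units). The arrays read its transcript, whereas the antibody in the cultures was directed at its protein. Ifnb1 read 3.95 and 22.7 units, at least 1.56-fold higher, and Ifna2 stood at 0.84 on 24.9 and 45.7 units. The Ifna2 value came from 1 dim probe (within-array SD 0.35) with a feature number above 50000, and another Ifna2 probe was not detected. Among the 15 detected genes of interferon receptors and their signalling, 5 were at least 2-fold higher and 0 lower, with a median of 0.22. Of these, Stat2, Irf7 and Usp18 are also on the interferon-induced list and were counted there too. The receptor genes Ifnar1, Ifnar2, Ifngr1 and Ifngr2 lay between -0.04 and 0.22. Irf7, a factor that amplifies type I interferon responses, stood at 2.83 and Stat2, a subunit of ISGF3, at 1.49, beside 1.502 for Slfn1.

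Lists of genes from the processes in which Slfn1 and Slfn2 are known had medians below the Schlafen median of 0.29. Of 18 detected quiescence genes 1 was higher by 2-fold or more and 0 were lower by 2-fold; the median was -0.06. Il7r, the receptor for the survival cytokine IL-7, stood at 1.40 and Klf2, a factor that holds T cells in quiescence, at -0.87. A further list held cyclin and cyclin-dependent kinase genes, their inhibitors, and Myc and E2f1. Of its 13 detected genes 0 were past 2-fold in either direction, with a median of 0.16 and the largest value at 0.55 for Cdk6.

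**Figure D5:**
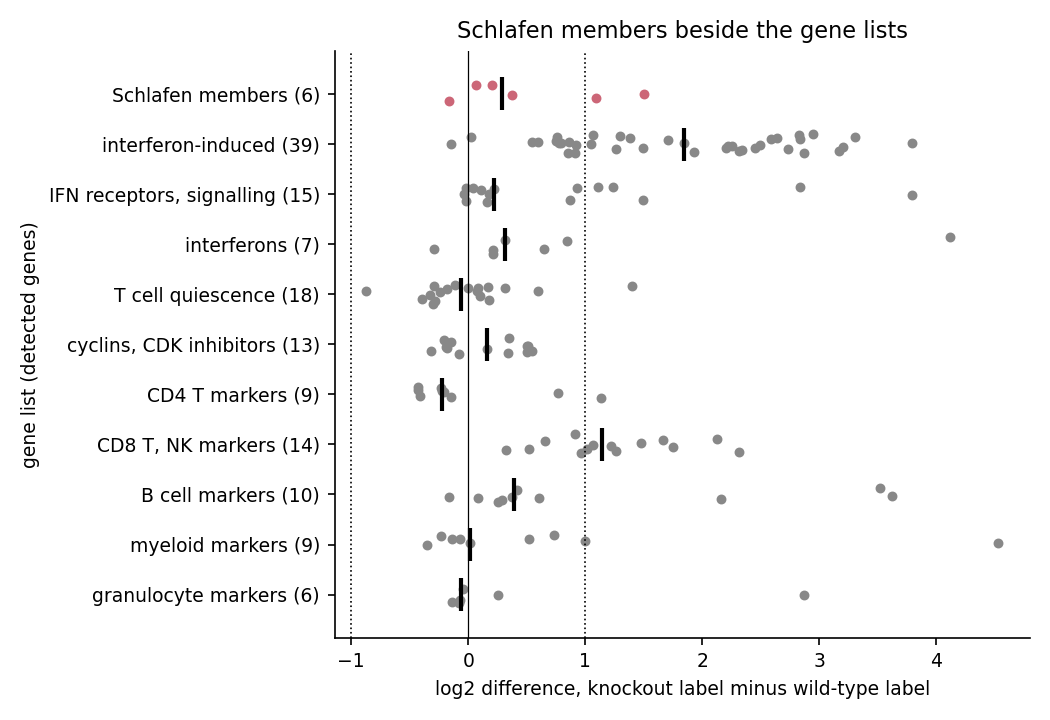
Log2 difference (knockout label minus wild-type label) of each detected gene in the Schlafen family and in 10 other lists, with the number detected in parentheses; black bars are list medians and dotted lines mark 2-fold. The Schlafen median of 0.29 lies below the interferon-induced median of 1.84 and the CD8 T and NK median of 1.15.

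Some facts of the whole series bear on every member. Gfi1 itself read 4260 units under the wild-type label and 18100 under the knockout label, which goes against the labels if its probe lies inside the deleted part; the sources used here do not give that place, so the libraries go by their labels. CD4 T cell markers were detected in both (Cd4 at 2319 and 2146 units); 7 of the 9 with a probe were lower under the knockout label, with a median log2 difference of -0.23 and summed signals of 190264 and 161044 units, while the log2 differences of Cd40lg and Icos were 1.14 and 0.77. CD8 T and NK cell markers differed in the same direction as Slfn1 and Slfn8. All 14 detected members of that list were higher under the knockout label, 9 at least 2-fold. Among all detected genes 41.6% were above 0 and 3.62% were at least 2-fold higher. Of the 14, 4 passed the filter only through the array labelled knockout, so their signs followed from the filter and the floor. The list's summed signal was 3695 and 8748 units. Most of it came from Gzma (1160 and 2770 units), Nkg7 (968 and 2076), Eomes (649 and 1843) and Prf1 (504 and 814). Which cells made these transcripts was not tested. The 4 below the floor under the wild-type label were Cd8a (4.07 and 34.9 units), Klrk1, Klrb1c and Ncr1. Other markers of the list were detected on both arrays, among them Cd8b1 (127 and 244 units), Klrd1 (82.1 and 282) and Klra4 (26.6 and 119). B cell markers summed to 667 and 1422 units. Of these, 3 of 10 were at least 2-fold higher: Blnk (30.6 and 386 units), Ms4a1 (18.9 and 221) and Fcer2a (31.1 and 142). In the same list 1 gene, Cd79b, was lower (281 and 256 units), and Pax5 was detected in neither. Myeloid markers summed to 417 and 754 units (1 of 9 at least 2-fold higher, Mpeg1, which was below the floor under the wild-type label). Cd14, Lyz2, C1qa and Itgax were detected in neither. Granulocyte markers summed to 46109 and 44792 units, nearly all from Csf3r (1 of 6 at least 2-fold higher, Mmp8, also below the floor under the wild-type label). S100a8, S100a9, Ngp, Ltf and Mmp9 were detected in neither. Fewer cells of a type and less RNA per cell cannot be told apart in these libraries, and the part of these cells in the Schlafen differences was not tested. Xist read 447 and 3.86 units and the Y-linked Eif2s3y 2.91 and 3870 units, so that sex and genotype label cannot be told apart.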

How the data were processed

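Cy3-labelled RNA of 2 cultures was hybridised to 1-colour arrays, from 100 ng of total RNA each per the labels' protocols. The authors used Agilent Feature Extraction 11.5.1.1, per the submitters' processing notes. The deposited files give a linear intensity per spot; the sources used here do not name a background correction, and no flags were used. A second deposited table of intensity values by the authors, near 2.27 and 2.26 times the per-array signals with column medians of 34.4 and 34.8, served as an alternative; it is linear and not centred, and how its constants were set stays unknown.

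Symbols were updated through RefSeq accessions of GRCm38.p6 for 29050 of 31465 named spots, through symbols for 2061 and synonyms for 353; members were taken by the annotation's own symbol. Spots of a probe were averaged on the log2 scale, and probes detected on at least 1 array were averaged per gene. Signals given for a gene with several probes are geometric means. Members and lists were chosen with earlier results of these data known. The genes that could be named were every member and relative, Gfi1, the 5 genes on each side and the 4 largest differences of each list. The text names a part of these. Cd4, Cd8a, Klrk1, Klrb1c, Ncr1, Gzma, Nkg7, Eomes, Prf1, the undetected markers, Xist and Eif2s3y were chosen after their values were seen. So were the interferon receptor genes, E2f1, Cd8b1, Cd79b, Ddx58 and Xaf1. Promoter windows were aligned globally with Biopython 1.88 (match 1, mismatch -1, gap opening -2, gap extension -0.5). Alternatives were other scalings, floors, filters, probe summaries, thresholds, an offset and leaving out late-numbered spots. The steps were tested on simulated data. The versions were 3.11.15 for Python, 2.4.6 for numpy, 2.3.3 for pandas, 0.14.6 for statsmodels and 3.10.9 for matplotlib. A planned promoter motif is not reported here.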

Additional observations from a re-analysis of the deposited data

How the results depend on the processing

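The number of members at least 2-fold higher, 2 as reported, was 1 when the floor was the 75th percentile (Slfn8), 1 with an offset of 16 units (Slfn1), 1 without spots above feature number 50000 (Slfn8) and 0 at a 4-fold threshold. It was 3 when the floor was the 25th percentile and 3 with no filter and no floor, where Slfn5 joined. Without spots above 60000, an alternative chosen after seeing the data, it stayed at 2. The count of members at least 2-fold lower was 0 in every alternative run. The detected members' median ran from 0.28 to 0.38, and no detected member's difference had another sign in any alternative run. In the runs that kept Slfn5 and used a floor, its sign followed from the floor. With a floor at the 75th percentile, the Slfn1 value was a bound of at least 0.33. The genes past 2-fold went from 485 higher and 204 lower to 980 and 634 with the floor at the 25th percentile, 1004 and 638 with no floor, 136 and 20 with the floor at the 75th, 374 and 125 with probes detected on both arrays, 338 and 117 with the offset, 351 and 105 without spots above 50000, 1029 and 570 at 1.5-fold and 136 and 46 at 4-fold. No paired analysis was possible because each group has 1 array. The number of arrays limits the precision.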
